A study of Mus musculus with 6 samples.

Results

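Expression of 10 genes that encode activin subunits, their antagonists, the TGF-β ligands and a TGF-β receptor was examined in primary mouse hepatocytes cultured with or without IL-1β. The genes were chosen by name, as members of these families, with earlier results of these data known. They make up 10 of the 23282 genes in the deposited table. They comprise the activin β-subunit genes *Inhba*, *Inhbb*, *Inhbc* and *Inhbe*, the antagonist genes *Fst* and *Fstl3*, the ligand genes *Tgfb1*, *Tgfb2* and *Tgfb3*, and the receptor gene *Tgfbr2*. Of these, 6 had enough counts to be tested, namely *Inhba*, *Inhbb*, *Fst*, *Fstl3*, *Tgfb2* and *Tgfbr2*. The other 4 are described by their counts.

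Activins are dimers of β-subunits. Like the TGF-βs, they bind a type II receptor kinase that recruits a type I receptor, which phosphorylates SMAD2 and SMAD3. Follistatin, the product of *Fst*, and the related protein encoded by *Fstl3* bind activins and keep them from their receptors, whereas TGF-βs are secreted in a latent form that has to be released. In the liver, activin A and TGF-β restrain hepatocyte growth, TGF-β drives matrix production by stellate cells, and follistatin circulates as a hepatokine.

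The cells came from livers of C57BL/6N mice, an inbred strain written as C57BL6/N in the sample labels, and no transgene or deletion is given for either group. After collagenase perfusion, straining and a 3 h attachment in M199 medium, the cells received fresh medium only (control, 3 samples) or recombinant IL-1β (3 samples), a proinflammatory cytokine released by macrophages, for 24 h. The design text states 2 samples per group but lists 3 names for each, and the labels and the deposited table hold 3, which were used. The dose given to the sequenced samples, and the age and number of mice, are not given in the sources used here. Nothing states that the replicates came from separate animals or cultures, so the p-values measure the spread between these samples, which may be technical.

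Libraries were made by QuantSeq 3′ mRNA sequencing, which counts fragments near the 3′ end of a transcript, so levels are given as CPM, each library's counts scaled to a common total with the trimmed-mean-of-M-values (TMM) factor, and are not divided by transcript length. The 6 libraries held 9538741 to 11105408 counts, at which 3 counts correspond to 0.269 to 0.321 CPM. Hepatocyte markers dominated the marker genes, with *Alb*, *Trf* and *Apoa1* the most abundant. Summed hepatocyte markers lay at 23089 to 23567 CPM in the control libraries and 19386 to 20193 CPM in the IL-1β libraries, and 6 of the 7 tested were called lower with IL-1β (adjusted p below 0.05 in edgeR's quasi-likelihood test), against 6.44% of all genes tested. Summed markers of macrophages (led by *Cd68*, *Cd5l* and *Marco*) lay at 214 to 241 CPM in control and 216 to 246 CPM in IL-1β libraries, those of endothelial cells (*Lyve1*, *Egfl7*, *Cdh5*) at 69.3 to 74.0 and 65.0 to 66.4 CPM, those of stellate cells and fibroblasts (*Col3a1*, *Rgs5*, *Acta2*) at 3.94 to 5.14 and 3.74 to 5.48 CPM, and those of cholangiocytes (*Sox9*, *Spp1*, *Krt19*) at 316 to 329 and 236 to 240 CPM. The macrophage sum was mostly *Cd68*, at a mean of 192 CPM in control and 184 CPM in IL-1β libraries. In the same list *Timd4*, *Vsig4* and *Clec4f* had 2, 17 and 53 counts in all. The sums combine members with opposite signs. Among cholangiocyte markers mean *Spp1* was 190 CPM in control and 82.7 CPM in IL-1β libraries and mean *Sox9* 134 and 155 CPM (not called), and among endothelial markers *Lyve1* was called higher and *Clec4g* and *Kdr* lower. No marker was at 0 in every library, although the stellate genes *Lrat* and *Des* had 4 and 12 counts in all. The cholangiocyte genes *Krt19*, *Krt7*, *Epcam* and *Cftr* had 11, 4, 2 and 2 counts in all. The sum of that list rested on *Sox9* and *Spp1*. The hepatocyte genes *Cps1* and *Ass1* had at most 33 and 13 counts in a library. *Ass1* is overlapped on the same strand by *Gm5424*, which held 4247 counts in all against 38, and how reads were divided between them was not tested. In bulk RNA, fewer cells of a type and less RNA per cell cannot be told apart, and the part these shifts play in the results below was not tested.

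Of the 6 tested genes, *Tgfb2* and *Fst* were higher after IL-1β at an adjusted p below 0.05 in edgeR's quasi-likelihood test, and none was lower. Across all 11657 genes tested, 13.4% were called in either direction, 6.97% higher and 6.44% lower. With TMM factors 812 of the 1563 calls were higher, and with total-count scaling 662 of 1670. In 1 of the 6, *Tgfb2*, the IL-1β and control libraries did not overlap, against 28.2% of all tested genes.

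**Figure D1:**
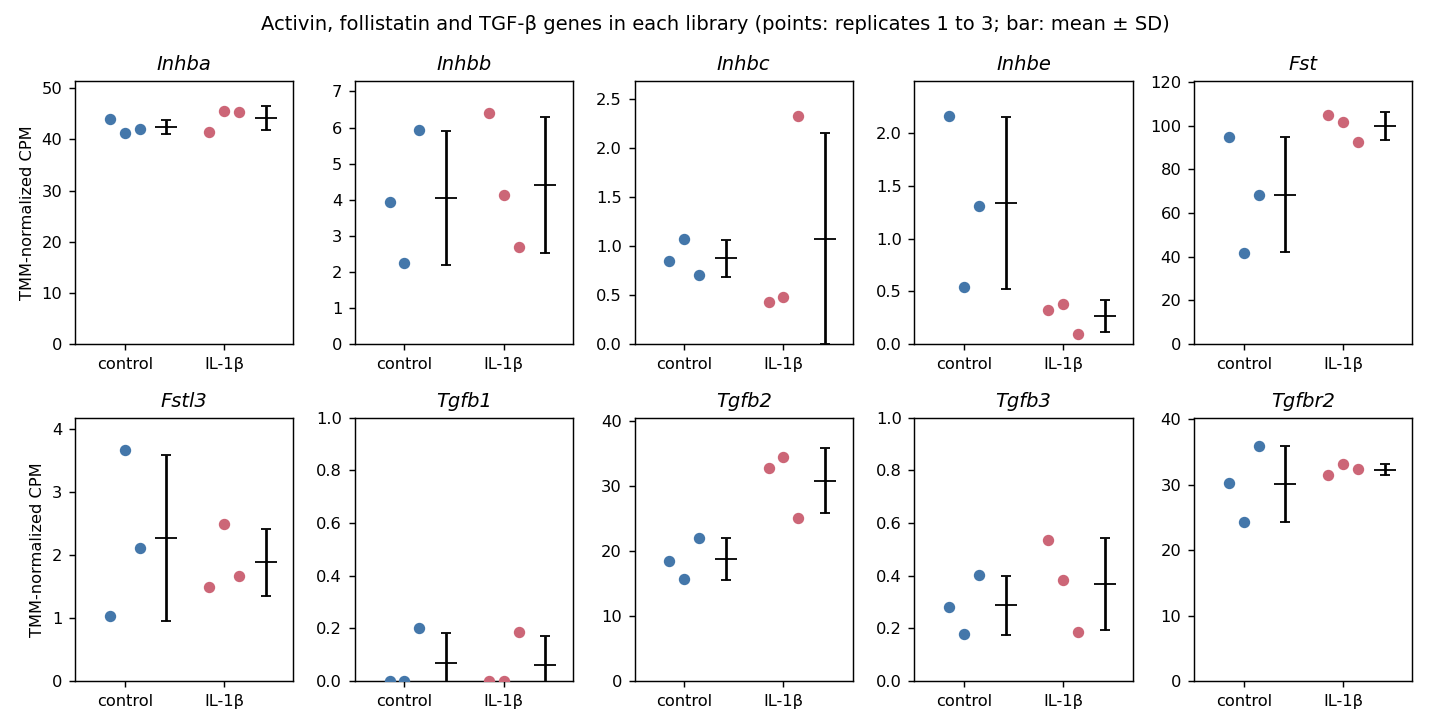
Expression of the 10 genes in each library, in TMM-normalized CPM on linear axes that differ between panels; points are replicates 1 to 3 of the control and IL-1β groups and bars are the mean ± SD, cut at 0 for Tgfb1 and for Inhbc with IL-1β. The IL-1β points of Tgfb2 lie above every control point and those of Inhbe below, whereas in Fst control replicate 1 reaches the IL-1β range.

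Among the TGF-β ligands, *Tgfb2* was the only one with more than a few counts. *Tgfb2* (chr1:186623186-186705992, minus strand, mm10) encodes TGF-β2. Its level was 18.5, 15.7 and 22.1 CPM in control replicates 1, 2 and 3 and 32.8, 34.5 and 25.1 CPM in IL-1β replicates 1, 2 and 3. Each IL-1β library was above each control library, the closest being IL-1β replicate 3 and control replicate 3. The mean rose from 18.7 ± 3.21 to 30.8 ± 5.01 CPM (SD, n = 3 each), which edgeR estimated as a log2 fold change of 0.72 (SE 0.15, 95% confidence interval 0.42 to 1.02, adjusted p = 9.5e-04), or 1.64-fold. An exact two-sided permutation test of the 6 values gave p = 0.1, the smallest that 3 against 3 samples allow. With each library left out in turn the edgeR log2 fold change stayed between 0.61 and 0.85 and the call remained, but a per-gene test on the log2 scale that shares no variance between genes gave 0.69 with an adjusted p of 0.169 and made no call.

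The 250 bases upstream of the *Tgfb2* start are shown because *Tgfb2* was the ligand gene that rose. They lie at chr1:186705990-186706239 on the minus strand in the RefSeq annotation of GRCm38.p6 and are written 5′ to 3′, with capitals marking the matches to the motifs searched.

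Tgfb2: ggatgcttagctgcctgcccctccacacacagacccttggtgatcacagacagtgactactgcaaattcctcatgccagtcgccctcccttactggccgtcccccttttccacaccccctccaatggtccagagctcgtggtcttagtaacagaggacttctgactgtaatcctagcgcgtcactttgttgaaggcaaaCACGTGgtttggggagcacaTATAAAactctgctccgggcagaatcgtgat

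The capitals are an E-box (CACGTG) and a TATA box (TATAAA), which begin 51 and 31 bases before the start. Both strands were searched, and of the 32851 mouse promoters given by RefSeq, 6.02% held that E-box and 12.4% that TATA box in the same window. The window held no match to the κB consensus, the AP-1 motif TGANTCA, the C/EBP motif TTGCNNAA, the cyclic AMP response element TGACGTCA, the composite C/EBP-ATF motif TGATGNAA or the SMAD palindrome GTCTAGAC. These are in 3.90%, 6.75%, 9.56%, 1.55%, 3.45% and 0.167% of all the promoters, respectively. A missing match says only that these letters are not in the window. Its GC content was 53.6%, against a median of 52.4% over all promoters.

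*Tgfb1* (chr7:25687002-25704996, plus strand), which encodes the most studied TGF-β of fibrotic liver, had 0, 0 and 2 counts in the control libraries and 0, 0 and 2 in the IL-1β libraries. *Tgfb3* (chr12:86056743-86079041, minus strand), which encodes TGF-β3, had 3, 2 and 4 counts in control and 5, 4 and 2 in IL-1β libraries. At these counts, at or near the floor of 3, no change in either gene was detectable at this depth and no fold is given. In the GENCODE annotation *Tgfb3* overlaps *Ttll5* on the other strand, a gene with 114 to 157 counts per library and a log2 fold change of −0.03.

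Because *Tgfb1* and *Tgfb3* were so low, *Tgfb2* supplied 98.2 ± 0.802% of the summed 3′ counts of the TGF-β ligand genes in control and 98.6 ± 0.258% in IL-1β libraries (SD, n = 3 each), a share that did not differ beyond its spread (exact permutation test, p = 0.6). The summed counts were 201 ± 24 in control and 316 ± 44.7 in IL-1β libraries.

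*Tgfbr2* (chr9:116087695-116175363, minus strand) encodes the type II receptor that binds TGF-βs. It stood at 30.3, 24.3 and 36.0 CPM in the control libraries and 31.4, 33.1 and 32.4 CPM in the IL-1β libraries. The IL-1β libraries lay inside the control range. Means were 30.2 ± 5.86 and 32.3 ± 0.861 CPM (SD, n = 3 each), and the edgeR log2 fold change of 0.10 had a 95% interval of −0.16 to 0.37 (adjusted p = 0.705), which turned to −0.03 when control replicate 2, the lowest library, was left out. Its 250-base window held 1 C/EBP match, beginning 205 bases before the start.

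Among the activin genes, *Inhba*, whose product forms activin A, had the most counts and a steady level. *Inhba* (chr13:16014475-16027211, plus strand) was at 44.0, 41.4 and 42.1 CPM in control replicates 1, 2 and 3 and at 41.5, 45.5 and 45.5 CPM in IL-1β replicates 1, 2 and 3. The groups overlapped, with control replicate 1 above IL-1β replicate 1. The log2 fold change was 0.06 (SE 0.098, 95% interval −0.15 to 0.26, edgeR adjusted p = 0.805), so that a change beyond 0.904- to 1.20-fold lies outside the interval.

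*Inhbb* (chr1:119415465-119422248, minus strand), whose product forms activin B, was measured with 25 to 60 counts per library. Its level was 3.95, 2.24 and 5.94 CPM in the control libraries and 6.41, 4.13 and 2.70 CPM in the IL-1β libraries. The libraries were interleaved, with the highest and the second lowest both treated with IL-1β. The log2 fold change of 0.13 had a 95% interval of −0.62 to 0.87 (edgeR adjusted p = 0.895) and became −0.17 without control replicate 2 and −0.23 without IL-1β replicate 1.

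*Inhbe* (chr10:127349402-127351772, minus strand) encodes the liver-enriched βE-subunit, a secreted hepatokine. It had 23, 6 and 13 counts in control replicates 1, 2 and 3 and 3, 4 and 1 counts in IL-1β replicates 1, 2 and 3, or 2.16, 0.537 and 1.31 CPM against 0.321, 0.384 and 0.0930 CPM. Each IL-1β library was below each control library, and IL-1β replicate 2 was the closest to control replicate 2. The mean was 1.34 ± 0.812 CPM in control and 0.266 ± 0.153 CPM in IL-1β libraries (SD, n = 3 each; exact permutation test, p = 0.1). Summed over the libraries, 42 counts in control and 8 in IL-1β libraries gave a rate ratio of 0.198 (exact 95% interval 0.0803 to 0.427, which covers counting error only). *Inhbe* did not pass the count filter. Of the 4532 genes with a count but too few to test, 8.27% did not overlap in either direction. Among the 651 untested genes with a total count within 1.5 times its own, 8.29% were lower without overlap, and an edgeR fit without the filter, which called 10.7% of 16189 genes, gave *Inhbe* a log2 fold change of −2.29 (SE 0.84) with an adjusted p of 0.0561. Without control replicate 2 *Inhbe* passed the filter and was called, at −2.67 with an adjusted p of 0.0199, and without IL-1β replicate 1, 2 or 3 it passed the filter and was not called (adjusted p of 0.103, 0.0856 and 0.185).

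A site upstream of *Inhbe* is shown because it carries the composite C/EBP-ATF motif found in 3.45% of all promoters. The 30 bases lie at chr10:127352011-127352040 on the minus strand in GRCm38.p6 (RefSeq), and capitals mark the match, which begins 181 bases before the start and reads TGATGNAA on the opposite strand. The start is that of RefSeq, and in GENCODE the *Inhbe* gene spans chr10:127348857-127354411, so the site lies inside the gene in that annotation.

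Inhbe site: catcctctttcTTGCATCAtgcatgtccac

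A match is a description of the sequence, and no binding was measured here. Of the 10 genes, 8 had a RefSeq promoter entry, and *Fst* and *Tgfb3* had none. The *Inhba* window held a C/EBP match and a TATA box beginning 67 and 91 bases before the start. The *Fstl3* window held a match to the TATA box letters at 29 bases, which reads TATAAA only on the strand opposite to the gene.

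*Inhbc* (chr10:127356326-127370544, minus strand) encodes the βC-subunit, which is also enriched in liver, and lies next to *Inhbe*. It had 9, 12 and 7 counts in the control libraries and 4, 5 and 25 in the IL-1β libraries. IL-1β replicate 3 was the highest of the 6 libraries while IL-1β replicates 1 and 2 were the lowest. The means were 0.875 ± 0.186 and 1.08 ± 1.08 CPM (SD, n = 3 each; exact permutation test, p = 1). The log2 ratio of the means was 0.30 with all libraries and −0.94 without IL-1β replicate 3, so its direction rests on that library.

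As a share of the summed 3′ counts of the β-subunit genes, *Inhba* made up 87.3 ± 3.78% in control and 88.4 ± 2.73% in IL-1β libraries, and *Inhbb* 8.19 ± 3.48% and 8.90 ± 3.98% (SD, n = 3 each). *Inhbe* made up 2.68 ± 1.53% in control libraries, with a range of 1.19 to 4.24%, and 0.535 ± 0.308% in IL-1β libraries, with a range of 0.184 to 0.760%. The *Inhbe* shares did not overlap (exact permutation test, p = 0.1), whereas those of *Inhba* (p = 0.9), *Inhbb* (p = 0.7) and *Inhbc* (p = 1) did not differ beyond their spread in the same exact test. None of these 4 shares can pass a threshold of 0.05 in this design, with or without adjustment. The summed β-subunit counts were 515 ± 24 in control and 508 ± 47.1 in IL-1β libraries.

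Of the antagonists, *Fst* (chr13:114452262-114458951, minus strand) was higher after IL-1β, and its control libraries were widely spread. Its level was 94.6, 41.9 and 68.4 CPM in control replicates 1, 2 and 3 and 105, 102 and 92.6 CPM in IL-1β replicates 1, 2 and 3. The groups overlapped, since control replicate 1 was above IL-1β replicate 3. The mean rose from 68.3 ± 26.4 to 99.8 ± 6.43 CPM (SD, n = 3 each), with a log2 fold change of 0.55 (SE 0.16, 95% interval 0.22 to 0.87, edgeR adjusted p = 0.0197), or 1.46-fold, and an exact permutation test of the 6 values gave p = 0.2.

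The call of *Fst* depended on the test and on single libraries. DESeq2 gave the same log2 fold change of 0.55 with an adjusted p of 0.343. In edgeR, leaving out control replicate 2, the lowest library, gave 0.29 with an adjusted p of 0.109. Leaving out IL-1β replicate 1, 2 or 3 gave 0.52, 0.54 and 0.60 with adjusted p of 0.101, 0.0865 and 0.0602, and without control replicate 1 the log2 fold change was 0.86. The log2 fold change was above 0 in every one of these fits.

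*Fstl3* (chr10:79777274-79782630, plus strand) had 11, 41 and 21 counts in the control libraries and 14, 26 and 18 in the IL-1β libraries, with means of 2.27 ± 1.33 and 1.89 ± 0.534 CPM (SD, n = 3 each). The IL-1β libraries lay within the control range. The log2 fold change of −0.27 (95% interval −1.20 to 0.67, edgeR adjusted p = 0.80) became 0.28 without control replicate 2. In all 6 libraries its counts were identical to those of *Prss57*, a serine protease gene on the opposite strand that overlaps it by 1157 bases, so the counts of these genes cannot be told apart. Among the 11833 genes with at least 50 counts in total, 14 had counts identical to another gene, and *Fstl3* with *Prss57* was the only such pair on opposite strands.

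Antagonist and ligand counts were also set against each other within each library. The log2 ratio of summed *Fst* and *Fstl3* to summed *Inhba* and *Inhbb* counts was 0.54 ± 0.47 in control libraries (SD, n = 3). It was 1.06 ± 0.092 in IL-1β libraries (SD, n = 3), a difference of 0.53. The groups overlapped, with control replicate 1 at 0.996 above IL-1β replicate 3 at 0.968. An exact permutation test gave p = 0.2. The smallest p this design allows is 0.1, so the test cannot decide whether the ratio changed. This ratio is one of 3′ counts and not of proteins.

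**Figure D2:**
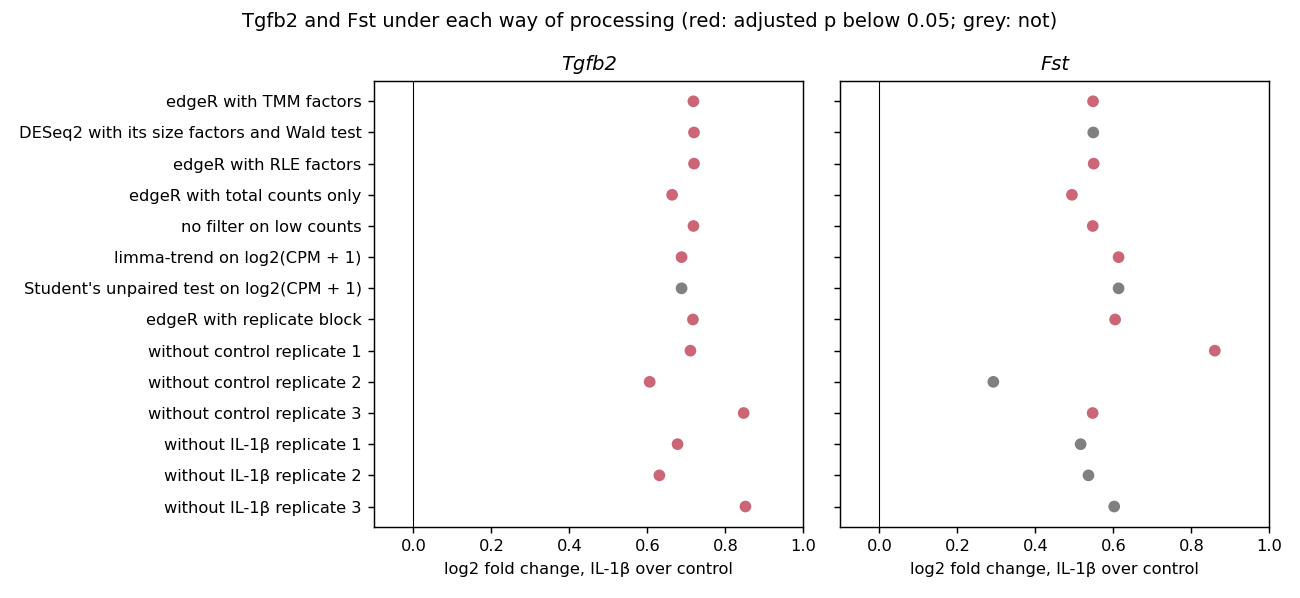
Log2 fold change (IL-1β over control) of Tgfb2 and Fst under each test, normalization and left-out library, in red where the adjusted p is below 0.05 and in grey where it is not. Tgfb2 lies between 0.61 and 0.85 and is grey in 1 setting, and Fst lies between 0.29 and 0.86 and is grey in 6.

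The rest of the pathway was examined in 59 further genes in 4 groups, also chosen with earlier results known, of which 42 were tested. Of these, 8 were higher and 3 were lower after IL-1β, with a median log2 fold change of −0.03, against 812 and 751 of the 11657 genes tested with a median of −0.002. The groups did not overlap in 12 of the 42, against 28.2% of all genes tested.

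Among 10 further receptor genes, 7 were tested, 2 were higher and none was lower (median log2 fold change 0.04). *Acvr1*, a type I receptor of BMPs and activins, was at 26.3, 14.4 and 20.8 CPM in control and at 29.9, 30.3 and 29.2 CPM in IL-1β libraries. Each IL-1β library exceeded each control library, and the log2 fold change was 0.54 (SE 0.16, edgeR adjusted p = 0.0189), and 0.34 with an adjusted p of 0.142 without control replicate 2. The call was also lost without IL-1β replicate 1, 2 or 3. *Bmpr2*, a type II receptor of BMPs, rose from 38.9 ± 1.44 to 48.7 ± 4.43 CPM (log2 fold change 0.33, edgeR adjusted p = 0.0320, n = 3 each), a call lost without control replicate 2 or 3 or IL-1β replicate 2 or 3, with a lowest value of 0.25 (adjusted p = 0.194) without IL-1β replicate 2. The activin type II receptors *Acvr2a* and *Acvr2b* had log2 fold changes of −0.10 and −0.15 and the TGF-β type I receptor *Tgfbr1* 0.04, and none of these passed the test. *Acvr1c*, which encodes a type I receptor of activin B, was at 0 in every library.

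Among 17 extracellular regulators, 10 were tested and 1 was called (median log2 fold change −0.06). *Thbs1*, whose product thrombospondin 1 can release TGF-β from its latent form, rose from 1.97 ± 0.632 to 4.36 ± 1.33 CPM (log2 fold change 1.14, edgeR adjusted p = 0.0422, n = 3 each). That call was lost without any one of 5 of the 6 libraries, the exception being control replicate 1. *Itgb8* and *Tdgf1* were at 0 in every library.

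Of 14 SMADs and intracellular mediators, 12 were tested, 2 were higher and none was lower (median log2 fold change −0.04). The transducers *Smad2*, *Smad3* and *Smad4* had log2 fold changes of −0.11, −0.09 and 0.07 and did not pass the test. The genes that rose encode ubiquitin ligases that act on SMADs and receptors. *Nedd4l* went from 50.1 ± 8.36 to 70.4 ± 8.86 CPM (log2 fold change 0.49, edgeR adjusted p = 0.00342) and *Smurf1* from 40.9 ± 4.01 to 53.6 ± 4.94 CPM (0.39, adjusted p = 0.0113, n = 3 each). Without IL-1β replicate 2 neither was called, at adjusted p of 0.0501 and 0.0964. *Smurf2* and *Trim33*, ubiquitin ligase genes of the same group, had log2 fold changes of −0.02 and 0.11 and were not called (edgeR adjusted p of 0.947 and 0.646).

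Of 18 target genes of TGF-β and activin, 13 were tested, 3 were higher and 3 were lower (median log2 fold change −0.07). *Fn1*, which encodes the matrix protein fibronectin, was at 115, 117 and 106 CPM in control and at 65.1, 57.9 and 66.8 CPM in IL-1β libraries. Each IL-1β library was below each control library, and the log2 fold change was −0.83 (edgeR adjusted p = 4.5e-08).

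The groups of *Cdkn2b* did not overlap either. *Cdkn2b*, a cell cycle inhibitor gene, fell from 7.61 ± 0.558 to 2.90 ± 0.481 CPM (log2 fold change −1.38, edgeR adjusted p = 6.8e-04, n = 3 each). *Ctgf*, a matrix-associated growth factor gene, had overlapping groups and a log2 fold change of −0.37 (adjusted p = 0.0298), a call lost without control replicate 3 (−0.24, adjusted p = 0.224) or IL-1β replicate 1 or 3. *Junb*, an AP-1 subunit, and *Skil*, a SMAD corepressor, had log2 fold changes of 0.36 and 0.31 (adjusted p of 0.00245 and 0.0343), and the call of *Skil* was lost without any library other than control replicate 3, with adjusted p of up to 0.143. *Smad7*, the inhibitory SMAD induced by the pathway, had −0.15 (adjusted p = 0.713).

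**Figure D3:**
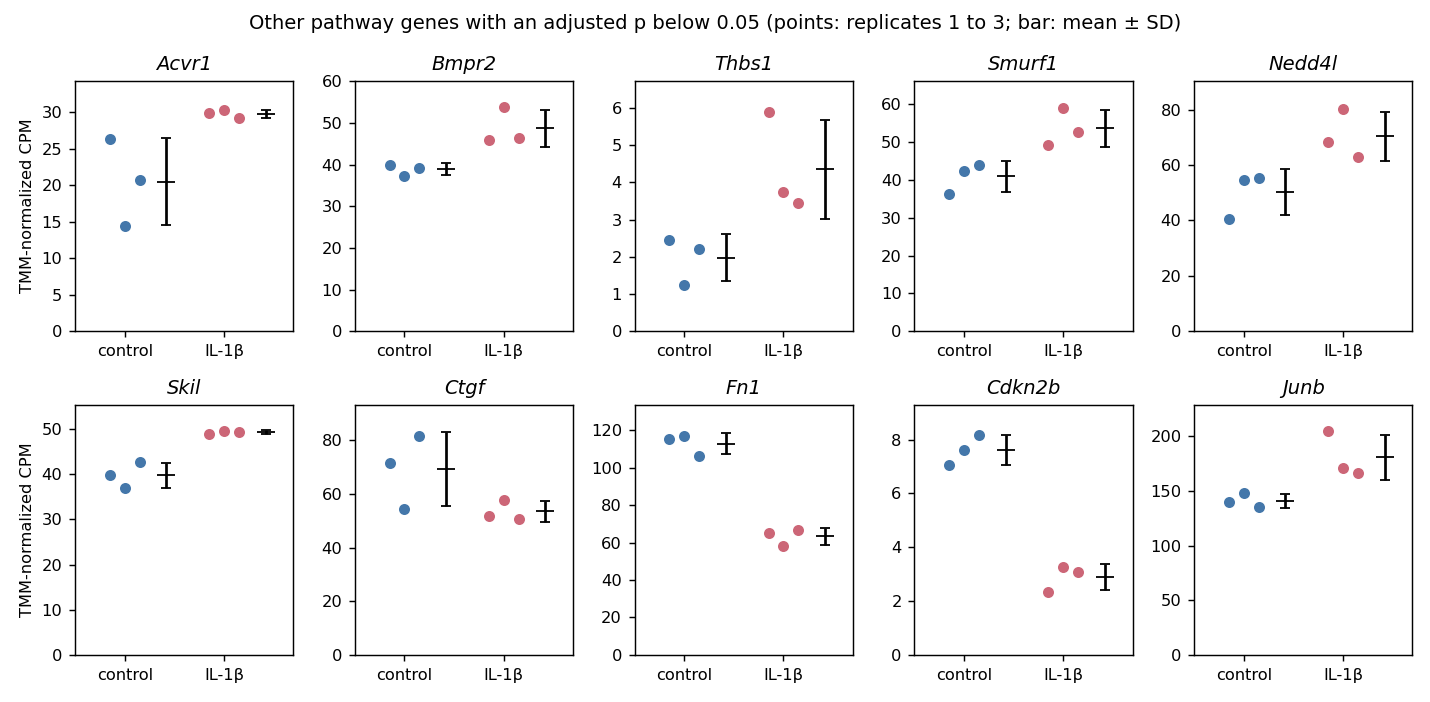
TMM-normalized CPM of 10 further pathway genes with an adjusted p below 0.05, by library, on linear axes from 0 that differ between panels; points are replicates 1 to 3 and bars the mean ± SD. The control points of Fn1 lie at 106 to 117 CPM and its IL-1β points at 57.9 to 66.8 CPM, and in Ctgf the groups overlap.

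**Figure D4:**
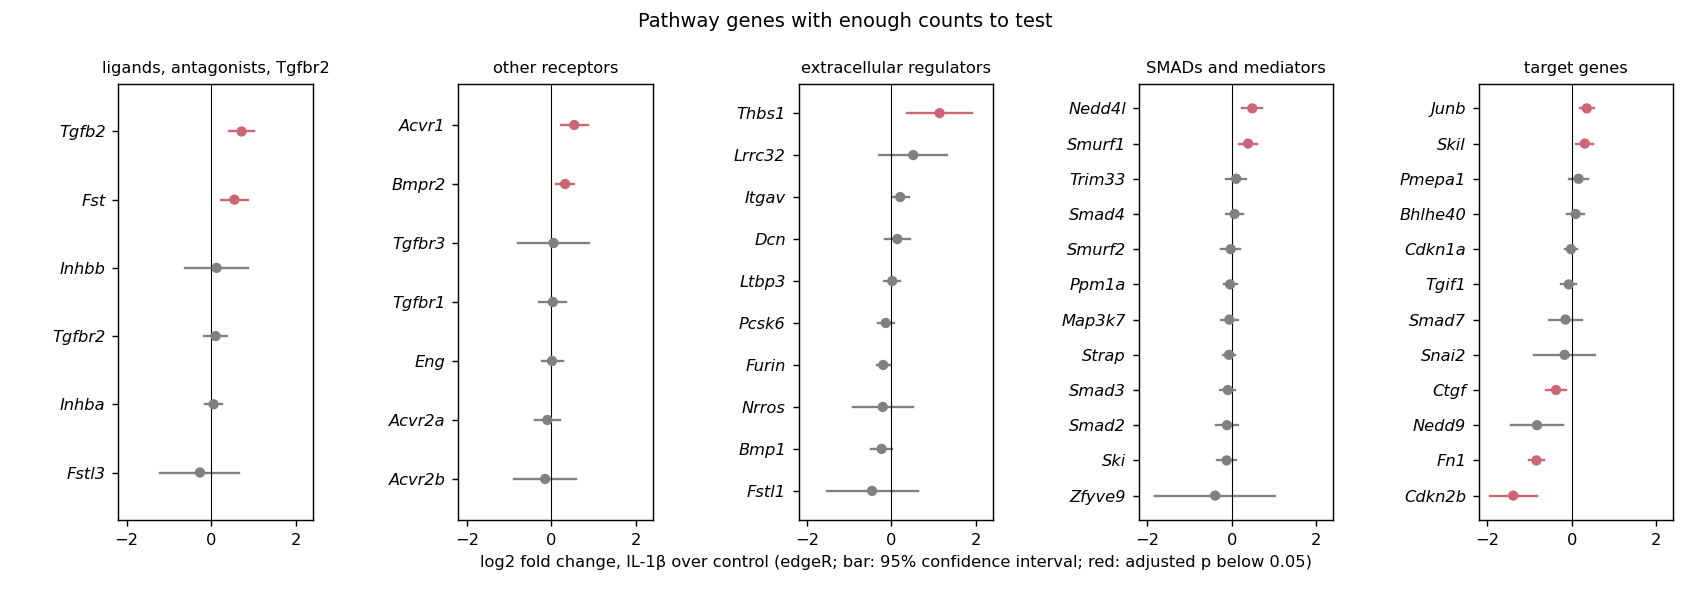
Log2 fold change (IL-1β over control) with its 95% interval for tested genes of each group, from edgeR, in red where the adjusted p is below 0.05. Most intervals span 0, Thbs1 lies at 1.14 and Cdkn2b at −1.38, and Tgfb2 at 0.72 and Fst at 0.55 are the genes that rose among the ligands and antagonists.

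Across the 6 libraries, the genes whose log2(CPM + 1) followed that of *Tgfb2* most closely, among 7980 genes at a mean of at least 10 CPM, were *Tmem123*, *Scn8a* and *Ppp1r15b* (Pearson r of 0.996, 0.993 and 0.991). Those closest to *Fst* were *Aacs*, *Acvr1* and *Slc25a5* (r of 0.991, 0.989 and 0.986). *Acvr1* and *Fst* shared the order of their control libraries, with control replicate 1 highest and control replicate 2 lowest. *Scn8a* and *Acvr1* were called, whereas *Tmem123*, *Ppp1r15b*, *Aacs* and *Slc25a5* were not (edgeR adjusted p of 0.255, 0.191, 0.517 and 0.248). These r values describe the likeness over the same 6 libraries and groups. They are the highest of 7980 genes ranked, and how high r would be without any shared control was not tested.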

How the data were processed

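Per the labels, RNA of 3 control and 3 IL-1β hepatocyte samples was sequenced with single-end QuantSeq 3′ libraries, and the authors aligned reads with Bowtie2. The submitters' processing notes name edgeR and mm10 (GRCm38). The counting tool, its strand setting and tool versions are not given in the sources used here. The deposited table holds raw read counts per gene, which were analysed, and the authors' log2 normalized values, fold ratios and unadjusted p-values, which were not used.

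Groups came from the sample labels. Counts were filtered (filterByExpr, minimum count 10) to 11657 genes and compared with edgeR 4.0.16 (TMM factors, quasi-likelihood test, R 4.3.3), with Benjamini-Hochberg adjustment over all genes tested. Shares, ratios and single genes were compared by two-sided exact permutation tests (scipy 1.17.1), whose smallest p is 0.1. Intervals are 95%. In simulated data with 198 changed genes, edgeR called 87.9% of them, and 3.33% of its calls were unchanged genes. Alternatives used DESeq2 1.42.0, limma 3.58.1, a per-gene Student's test, other factors, no filter, a replicate block and each library left out.

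The 10 genes and the pathway lists were chosen with earlier results of these data known. Named genes were the 10, up to 6 called genes per pathway list by adjusted p, receptors and SMADs, the 3 most abundant markers per list, and the 3 genes most like each called gene of the 10. *Lrat*, *Des*, *Cps1*, *Ass1*, *Gm5424*, *Clec4g*, *Kdr*, *Prss57*, *Ttll5*, *Itgb8* and *Tdgf1* were added after their values were seen. The same holds for *Krt7*, *Epcam*, *Cftr*, *Timd4*, *Vsig4*, *Clec4f*, *Smurf2* and *Trim33*. The values of 1 called target gene, which is included in the counts, are not reported here.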

Additional observations from a re-analysis of the deposited data

How the results depend on the processing

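*Tgfb2* and *Fst* were called under RLE factors, total-count scaling, no filter and limma. DESeq2 called 1 of the 10 genes and the per-gene Student's test, which shares no variance between genes, 0, and leaving out 1 library gave 1 to 2, the second without control replicate 2 being *Inhbe*. Of all genes, DESeq2 called 1496 of 11657, and edgeR with 1 library left out called from 1131 of 11910 to 1596 of 11889. Student's test called 547 of all genes, against 1563 in edgeR with all libraries. It called 49.5% of the changed genes in the simulated data, a rate that need not hold for *Tgfb2* and *Fst*. In the pathway lists, where 11 genes were called, Student's test called 3 and leaving out 1 library gave 6 to 10. The genes counted with 1 library left out need not all be among the 11. By group, Student's test called 0 receptors, 0 extracellular regulators, 0 mediators and 3 targets, total-count scaling called 1 receptor, and leaving out 1 library gave 0 to 2, 0 to 1, 0 to 2 and 4 to 6. Genes among the 6 tested whose groups did not overlap numbered 1 to 2 with 1 library left out, for which no share over all genes is given here. Total-count scaling moved the median gene to −0.06 and the genes called higher to 662 of 1670, from 812 of 1563, and ended the calls of *Bmpr2*, *Thbs1* and *Skil* (adjusted p of 0.0844, 0.0502 and 0.0991).

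With 1 library left out, directions turned for *Inhbb* (log2 fold change −0.23 to 0.50, including −0.17), *Inhbc* (log2 ratio −0.94 to 0.69), *Fstl3* (−0.62 to 0.28) and *Tgfbr2* (−0.029 to 0.25). They also turned for the difference in share, in percentage points, of *Inhba* (−0.490 to 3.20, 1.11 with all libraries), *Inhbb* (−1.44 to 2.55, including −0.913, against 0.707), *Inhbc* (−0.900 to 0.958, against 0.327), *Tgfb1* (−0.296 to 0.243, including 0.0687, against −0.0530) and *Tgfb2* (−0.0731 to 0.695, against 0.377). The causes were not tested.

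No source used here states that replicate numbers pair the samples, and deviations of same-numbered libraries correlated at 0.075, 0.027 and −0.005. Whether same-numbered samples shared an animal or culture was not tested. Fitted with a replicate block, edgeR called 1671 genes, the same number of the 10 genes (2) and the same number in the pathway lists (11), with log2 fold changes of 0.72 for *Tgfb2* (adjusted p = 8.1e-04) and 0.60 for *Fst* (adjusted p = 6.6e-04).

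Low counts limited *Tgfb1*, *Tgfb3*, *Inhbc* and *Inhbe*, which had at most 25 counts in any library. The reason for these low counts was not tested.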

Other observations

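The 3′ end of several of the 10 genes lies further downstream in GENCODE than in the deposited annotation, by 4410 bases for *Inhba*, 3402 for *Tgfbr2*, 545 for *Inhbe*, 394 for *Tgfb2* and 81 for *Tgfb1*, against at most 4 bases for the other 5. Whether reads beyond the deposited interval were counted was not tested.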
